A study of Mus musculus with 12 samples.

Results

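The genes described here are 10 genes of non-homologous end joining and of the 53BP1 pathway that protects broken DNA ends: Trp53bp1, Rif1, Mad2l2, Xrcc5, Xrcc6, Prkdc, Dclre1c, Xrcc4, Lig4 and Nhej1. They were chosen by name, and all 10 were found by their GENCODE mouse symbols among the 46078 genes counted, of which 33106 had a read in at least 1 library. The RNA came from spleen follicular (FO) B cells, which recirculate through lymphoid follicles, and marginal zone (MZ) B cells, which lie at the edge of the white pulp. The 12 libraries made 4 groups of 3, control and CKO for each subset. Mice of all groups were C57BL/6, were aged 8 to 12 weeks and carried VAVcre, a transgene active throughout the blood lineages, so that Cre acts in other blood cells as well as B cells. CKO mice also carried the conditional Zbtb24 allele and are labelled Zbtb24-/-, and control mice are labelled WT. A magnetic bead kit separated the subsets. The labels give 6 mouse numbers, each shared by 1 FO and 1 MZ library, which are taken here, by inference, as cells of 1 animal.

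Non-homologous end joining seals broken DNA without a template. The Ku heterodimer of XRCC5 (Ku80) and XRCC6 (Ku70) binds the ends and recruits the kinase DNA-PKcs, encoded by Prkdc, after which the nuclease Artemis (Dclre1c) opens hairpins and trims ends, and the ligase LIG4 with its partners XRCC4 and XLF (Nhej1) joins them. 53BP1 (Trp53bp1) acts with RIF1 and with the shieldin complex, which holds REV7 (Mad2l2), to keep ends from being resected. B cell precursors use the joining factors in V(D)J recombination, and activated mature B cells use both sets of proteins in class switch recombination, the exchange of antibody constant regions.

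Promoter sequence is shown for the member that differed most between the subsets (Dclre1c), the member with the highest level per length (Xrcc5) and the gene that gives the protection pathway its name (Trp53bp1). Each stretch is the 250 bases before a RefSeq start on GRCm38.p6 and holds no annotated exon. Capitals mark a CCAAT box (CCAAT) or a GC box (GGGCGG) on either strand.
Dclre1c, chr2:3423881-3424130, plus strand: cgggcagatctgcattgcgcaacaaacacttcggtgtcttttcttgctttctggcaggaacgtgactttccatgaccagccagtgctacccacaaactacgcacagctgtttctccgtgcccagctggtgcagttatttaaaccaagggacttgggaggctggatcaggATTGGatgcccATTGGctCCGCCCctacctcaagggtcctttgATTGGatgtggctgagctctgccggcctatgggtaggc
Xrcc5, chr1:72307171-72307420, plus strand: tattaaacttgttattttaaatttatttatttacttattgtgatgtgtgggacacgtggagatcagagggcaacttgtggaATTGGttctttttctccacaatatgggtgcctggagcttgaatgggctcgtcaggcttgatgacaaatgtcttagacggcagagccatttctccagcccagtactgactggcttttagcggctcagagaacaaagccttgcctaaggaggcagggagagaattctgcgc
Trp53bp1, chr2:121271408-121271657, minus strand: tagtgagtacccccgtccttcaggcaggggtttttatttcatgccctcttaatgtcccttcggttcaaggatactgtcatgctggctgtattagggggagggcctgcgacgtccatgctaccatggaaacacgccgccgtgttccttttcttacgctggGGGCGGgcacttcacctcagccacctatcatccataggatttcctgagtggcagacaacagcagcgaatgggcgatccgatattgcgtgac
The Dclre1c stretch held 3 CCAAT boxes and 1 GC box, the Xrcc5 stretch 1 CCAAT box, and the Trp53bp1 stretch 1 GC box. RefSeq starts were matched for 8 of the 10 genes (not Rif1 and Prkdc), with 10 windows in all, as Lig4 and Mad2l2 had more than 1 each. Of these 10 windows, 8 held a GC box, 3 a CCAAT box and 3 the ETS letters CCGGAAG, against 32.7%, 33.9% and 6.91% of 32851 windows of the same length. The ETS letters were found only in windows of Lig4 and Xrcc4. The Mad2l2, Xrcc4 and Xrcc6 windows and a Lig4 window held annotated exon bases. The Xrcc6 window and the Mad2l2 window at 148140240 were exon over all 250 bases and lay inside the gene. For the Nhej1 window and the Mad2l2 window at 148130670, the bases after the start matched no GENCODE transcript start of the gene. All of these windows held a GC box. CpG counts ran from 5 (Xrcc5) to 33 (Mad2l2), against a median of 6 over all windows, and the shares were not adjusted for this. The letters TGACGTCA of the cAMP response element (1.55% of all windows) and CAGGACCT, reported for ZBTB24 (1.63%), were in 0 of the 10. Both strands were searched, no motif contains another, and a match describes letters and not a bound site.

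Gene counts summed to between 36340116 and 44629250 reads per library. The 10 genes held between 185 reads (Nhej1) and 5285 reads (Prkdc) in a library, and all 10 passed the filter on low counts in every comparison. B cell markers were detected in all groups, and in both genotypes 5 of 5 MZ markers passed as higher and 4 of 5 FO markers as lower in MZ than in FO libraries. The other FO marker, Cxcr5, passed in the opposite direction, as higher in MZ cells (log2 0.38 in control and 0.45 in CKO mice). The first principal component (40.8% of the variance) separated the subsets, and on the second (17.7%) the 3 replicates of each group were spread out, with replicate 3 highest and replicate 2 lowest in all 4 groups. Zbtb24 was at 61.4 ± 0.725 CPM (counts scaled by library size; SD, n = 3) in control and 48.5 ± 1.42 in CKO libraries of FO cells, and at 52.2 ± 2.74 and 43.2 ± 2.61 in those of MZ cells. Reads from outside the deleted part still count, so these totals do not measure the deletion.

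Compared per exon length, the Ku genes led the list and the ligase closed it in every group. Exon length is that of all annotated exons of a gene merged, 2555 bases for Xrcc5 and 4476 for Xrcc6. The order and the ratios below depend on that annotation. Before length is considered, FO control libraries held Xrcc6 at 47.4, 50.4 and 48.2 CPM and Xrcc5 at 41.5, 43.3 and 49.4. In FO control libraries Xrcc5 had 17.5 ± 1.61 RPKM (CPM divided by exon length in kilobases; SD, n = 3) and Xrcc6 10.9 ± 0.343. Rif1 followed at 8.14 ± 0.614, Prkdc at 7.01 ± 0.904, Trp53bp1 at 6.00 ± 0.111, Mad2l2 at 5.32 ± 0.0994 and Nhej1 at 5.20 ± 0.213 RPKM. Xrcc4 at 2.86 ± 0.190, Dclre1c at 2.67 ± 0.0302 and Lig4 at 1.40 ± 0.0240 RPKM were the lowest. In that order only Rif1 and Prkdc, and Mad2l2 and Nhej1, overlapped with their neighbour between libraries. Over all 12 libraries Xrcc5 stood at percentile 85.9 and Lig4 at percentile 36.5 of 18446 genes. The order differed between the subsets in the middle: in MZ control libraries Prkdc (8.99 ± 0.117 RPKM) lay above Rif1 (6.51 ± 0.522), and Dclre1c (4.37 ± 0.293) above Xrcc4 (2.55 ± 0.114), with no overlap in either pair. The ratio of Xrcc5 to Xrcc6, the subunits of the Ku ring, was 1.61 ± 0.158 in control and 1.56 ± 0.0962 in CKO libraries of FO cells, and 1.66 ± 0.124 and 1.71 ± 0.0879 in those of MZ cells, and the ranges of the 4 groups overlapped.

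**Figure D1:**
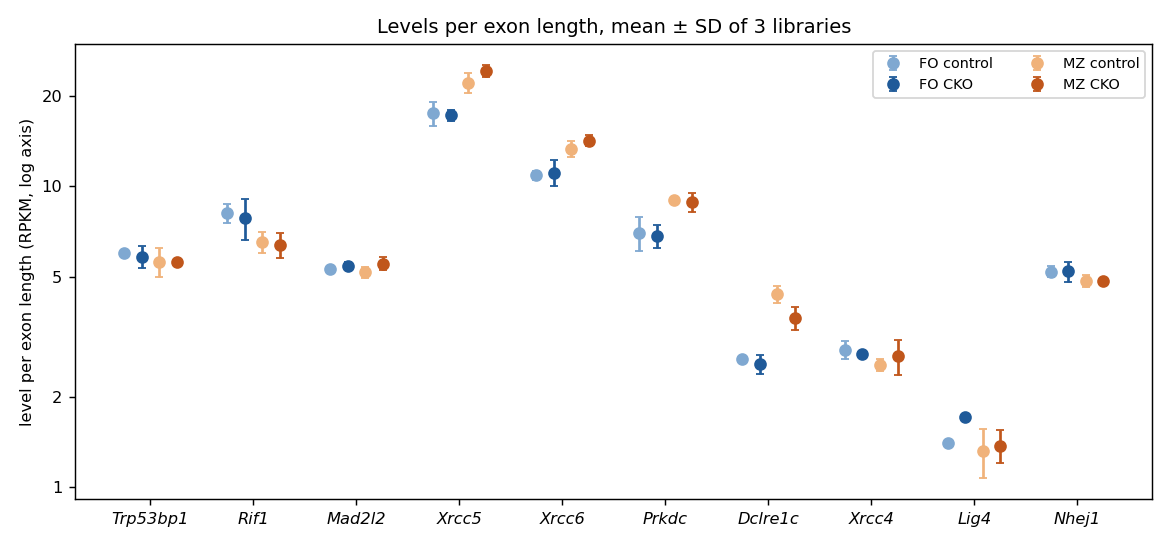
Level per exon length of the 10 genes (RPKM, log axis), mean ± SD of 3 libraries in each of the 4 groups. Xrcc5 is highest, at 17.5 in FO control and 22.0 in MZ control libraries, and Lig4 is lowest in all groups.

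MZ and FO B cells of control mice differed in 5 of the 10 genes. Xrcc5, Xrcc6, Prkdc and Dclre1c, the genes of break sensing and end processing, were higher in MZ cells, and Rif1 was lower. Trp53bp1, Mad2l2 and the 3 ligation genes did not pass the test (edgeR quasi-likelihood, p adjusted by Benjamini-Hochberg across every gene tested, threshold 0.05). Of the 17830 genes tested, 14.9% passed as higher and 13% as lower, against 4 and 1 of the 10. In CKO mice the same 4 genes were higher and none passed as lower, against 10.5% and 7.78% of 17712 genes. Libraries of the subsets did not overlap for 4 members in the higher direction in control mice, against 22.5% of all genes, and for 2 in the lower direction, Rif1 and Xrcc4, against 19.8%. In CKO mice these counts were 4, against 18%, and 1 (Lig4), against 18.5%. The median log2 difference of the 10 was -0.07 in control and 0.02 in CKO mice, and over all genes 0.01 and -0.01. In bulk samples, fewer cells of a type and less RNA per cell cannot be told apart.

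**Figure D2:**
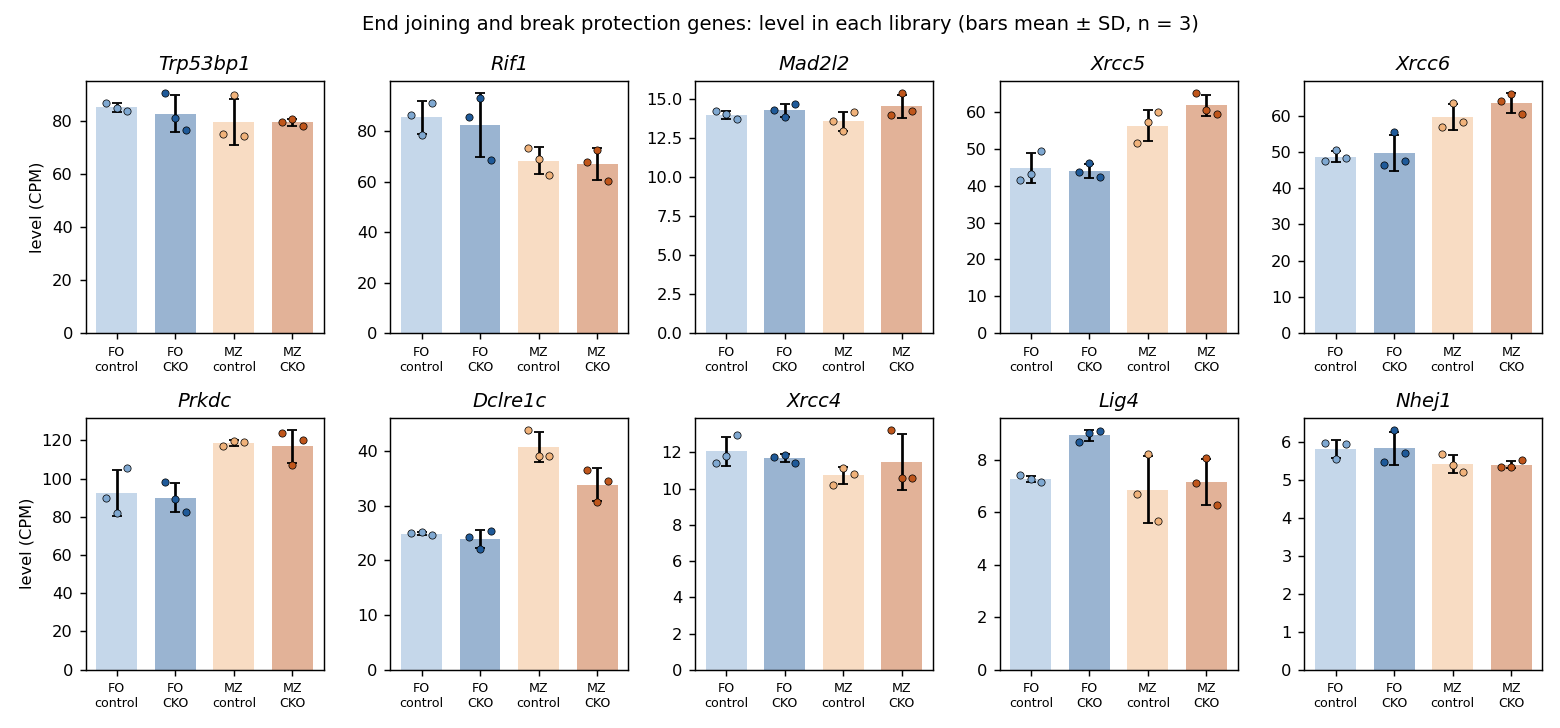
Level of each of the 10 genes in CPM, 1 panel per gene. Points are libraries and bars are mean ± SD (n = 3) of the 4 groups. For Dclre1c the MZ control points (39.2 to 43.9) lie above the FO control points (24.6 to 25.1), while for Mad2l2 the 4 groups overlap.

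Dclre1c, the Artemis nuclease (ENSMUSG00000026648, chromosome 2, 3424131 to 3464130, plus strand, GRCm38), showed the widest separation of the 10. FO control libraries were at 25.0, 25.1 and 24.6 CPM and MZ control libraries at 43.9, 39.2 and 39.2. All MZ control libraries lay above all FO control libraries by more than the spread within either group. The log2 difference was 0.71 (SE 0.08, edgeR adjusted p = 3.797e-05). In CKO mice FO libraries were at 24.3, 22.0 and 25.3 CPM and MZ libraries at 36.5, 30.6 and 34.4, again with no overlap (log2 0.52, SE 0.10, adjusted p = 0.005789). Within mice MZ exceeded FO in 6 of 6, by 0.44 to 0.81 on the log2 scale. The gene shares 357 of its 9316 exon bases with Suv39h2, a histone methyltransferase gene on the opposite strand that was at 2.37 ± 0.330 CPM in FO control and 3.20 ± 0.892 in MZ control libraries. The library kit does not mark strand.

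Xrcc5 (Ku80; ENSMUSG00000026187, chromosome 1, 72307421 to 72394952, plus strand) was at 41.5, 43.3 and 49.4 CPM in FO control and 51.6, 57.3 and 60.0 in MZ control libraries. The lowest MZ library lay just above the highest FO library. The log2 difference was 0.33 (SE 0.08, edgeR adjusted p = 0.012), and without MZ control replicate 3 the call was lost (adjusted p = 0.07115). These fits held no mouse number, and with it as a block the difference passed (edgeR adjusted p = 2.329e-06). In CKO mice FO libraries were at 43.6, 46.0 and 42.3 CPM and MZ libraries at 65.2, 60.6 and 59.6, a wider gap (log2 0.51, SE 0.07, adjusted p = 0.001498).

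Xrcc6 (Ku70; ENSMUSG00000022471, chromosome 15, 81987835 to 82040085, plus strand) followed its partner. Control libraries were at 47.4, 50.4 and 48.2 CPM in FO and 56.7, 63.6 and 58.3 in MZ cells, with no overlap (log2 0.29, SE 0.07, edgeR adjusted p = 0.007603). CKO libraries were at 46.4, 55.4 and 47.3 CPM in FO and 64.0, 65.9 and 60.5 in MZ cells (log2 0.37, SE 0.09, adjusted p = 0.0174). FO CKO replicate 2 was the high FO library, and the groups did not overlap. The CKO call was lost without any of 4 libraries in turn: FO CKO replicate 1 (0.0928), FO CKO replicate 3 (0.06903), MZ CKO replicate 1 (0.0719) or MZ CKO replicate 2 (0.05347). Those fits held no mouse number, and with it as a block on all 6 libraries the difference passed (edgeR adjusted p = 0.0001084).

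Prkdc (DNA-PKcs; ENSMUSG00000022672, chromosome 16, 15637866 to 15842235, plus strand), the kinase that Ku recruits, had the highest read level of the 10 before length is considered. FO control libraries were at 90.0, 81.9 and 105 CPM and MZ control libraries at 117, 120 and 119. The MZ libraries were close together, and all 3 lay above the spread of the FO libraries (log2 0.36, SE 0.09, edgeR adjusted p = 0.009456). CKO libraries were at 98.1, 89.3 and 82.7 CPM in FO and 124, 107 and 120 in MZ cells (log2 0.39, SE 0.08, adjusted p = 0.01047), and without MZ CKO replicate 1 the call was lost (adjusted p = 0.05255). With the mouse number as a block the CKO difference passed (edgeR adjusted p = 3.251e-05). MZ exceeded FO in 6 of 6 mice for Xrcc5 (0.28 to 0.58), Xrcc6 (0.25 to 0.46) and Prkdc (0.17 to 0.55 on the log2 scale).

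Rif1 (ENSMUSG00000036202, chromosome 2, 52072832 to 52122383, plus strand), the effector that 53BP1 brings to ends, was the member that was lower in MZ cells. FO control libraries were at 86.5, 78.7 and 91.4 CPM and MZ control libraries at 73.6, 69.0 and 62.6, with no overlap (log2 -0.32, SE 0.08, edgeR adjusted p = 0.01058), and without MZ control replicate 3 the call was lost (adjusted p = 0.05777). The control difference passed with the mouse number as a block (edgeR adjusted p = 3.887e-06). CKO libraries were at 85.6, 93.4 and 68.5 CPM in FO and 67.9, 72.8 and 60.2 in MZ cells. FO CKO replicate 3 lay inside the MZ range, and the difference did not pass (log2 -0.28, SE 0.12, adjusted p = 0.1508). With the mouse number as a block it passed (log2 -0.28, adjusted p = 0.001484), as it did without FO CKO replicate 3 (0.03345). MZ was below FO in 6 of 6 mice, with values from -0.55 to -0.19 on the log2 scale. With the block 22.4% of genes passed as higher and 21.3% as lower in control mice, and 19.2% and 16.6% in CKO mice.

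Trp53bp1 (53BP1; ENSMUSG00000043909, chromosome 2, 121193281 to 121271407, minus strand) did not pass in either genotype. Control libraries were at 86.7, 84.7 and 83.5 CPM in FO and 74.8, 89.6 and 74.0 in MZ cells, where replicate 2 was above all FO libraries and the others below them (log2 -0.10, 95% interval -0.27 to 0.07). CKO libraries were at 90.4, 81.1 and 76.4 CPM in FO and 79.6, 80.5 and 77.9 in MZ cells (log2 -0.04, interval -0.21 to 0.12). The gene shares 2130 of 14164 exon bases with Tubgcp4 on the opposite strand, so its level is uncertain to that extent. Mad2l2 (REV7; ENSMUSG00000029003, chromosome 4, 148130384 to 148145699, plus strand) varied least among groups, from 13.5 ± 0.601 CPM in MZ control to 14.5 ± 0.744 in MZ CKO libraries. Its MZ against FO interval was -0.26 to 0.17 in control and -0.19 to 0.28 in CKO mice.

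None of the ligation genes passed between the subsets. Lig4 (ENSMUSG00000049717, chromosome 8, 9969049 to 9977686, minus strand) was at 7.27 ± 0.125 CPM in FO control and 6.85 ± 1.28 in MZ control libraries, where the single MZ libraries were at 6.69, 8.21 and 5.65 (log2 -0.09, interval -0.42 to 0.25). In CKO mice it was at 8.92 ± 0.214 in FO and 7.14 ± 0.892 in MZ libraries, with no overlap, and did not pass (log2 -0.30, SE 0.15, edgeR adjusted p = 0.1981, and 0.05574 with the mouse block). Xrcc4 (ENSMUSG00000021615, chromosome 13, 89774027 to 90089608, minus strand), the scaffold that holds LIG4, was at 11.4, 11.8 and 13.0 CPM in FO control and 10.2, 11.2 and 10.8 in MZ control libraries. Those groups did not overlap, and the difference did not pass (log2 -0.17, interval -0.41 to 0.07). Nhej1 (XLF; ENSMUSG00000026162, chromosome 1, 74967139 to 75125200, minus strand) was at 5.81 ± 0.238 CPM in FO control and 5.42 ± 0.236 in MZ control libraries. It was lower in MZ cells in 6 of 6 mice (-0.24 to -0.03 on the log2 scale) without passing in either genotype.

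**Figure D3:**
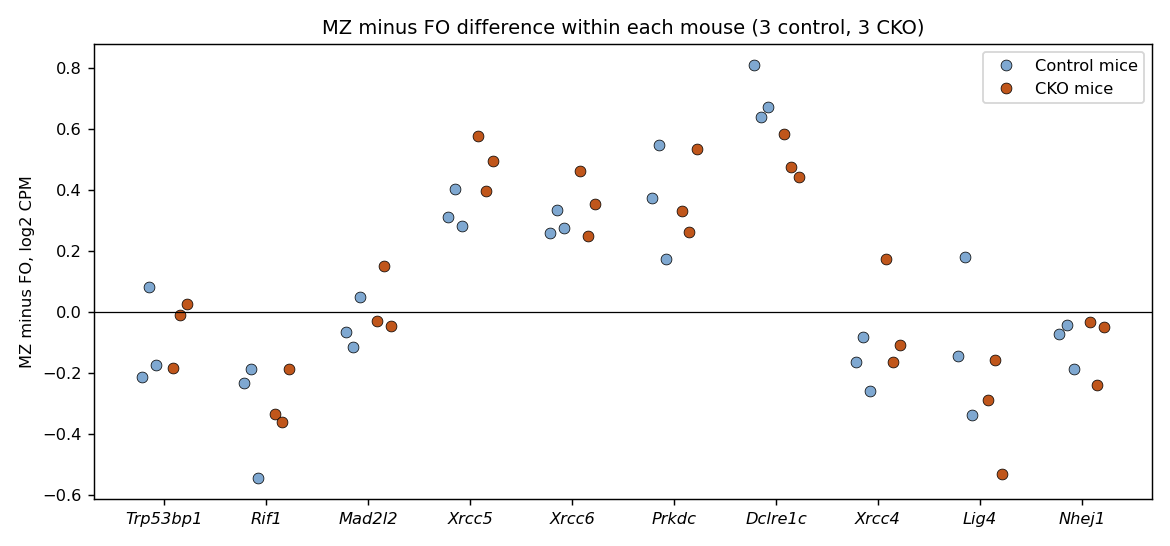
Difference of log2 CPM between MZ and FO libraries of the same mouse number for each of the 10 genes, with 3 control and 3 CKO mice as points. Dclre1c, Prkdc, Xrcc5 and Xrcc6 lie above 0 in 6 of 6 mice, and Rif1 and Nhej1 below 0 in 6 of 6.

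Markers of other cells moved with the subset. The summed level of 6 T cell markers was 264 to 308 CPM in FO control and 161 to 230 in MZ control libraries, and 5 of the 6 passed as lower in MZ cells. In CKO mice the sums were 186 to 273 and 134 to 214 CPM, with 1 of 6 passing. The sum of 8 proliferation markers ran from 226 to 289 CPM in control and 159 to 492 in CKO libraries of FO cells, and from 216 to 389 and 240 to 663 in those of MZ cells, and none of the 8 passed in any of these comparisons. The 3 NK cell and 6 neutrophil markers were lower in MZ cells in 6 of 6 mice, with 1 of these passing, the NK cell gene Ncr1 in CKO mice (log2 -0.73). Their sums in control mice were 21.7 to 33.4 CPM in FO and 13.5 to 24.7 in MZ cells for NK cells, and 56.9 to 144 and 39.1 to 106 for neutrophils. Of the 4 plasma cell markers Sdc1 passed as lower (-2.38 in control, -2.10 in CKO mice) and Prdm1 as higher (1.39 and 1.62). Flt3 of 4 dendritic cell markers passed as lower in control mice (-0.42), Lyz2 of 5 macrophage and monocyte markers did so in CKO mice (-0.80), and no erythroid marker passed. No marker was at 0 in all libraries of a group. The part of these cells in the differences of the 10 genes was not tested.

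Zbtb24 CKO against control gave no call among the 10 genes in either subset. In FO cells 16 of 17777 genes passed, 0.0563% as higher and 0.0338% as lower, 25 passed with the replicate number as a block and 31 without FO CKO replicate 3, with 0 of the 10 in either fit. In MZ cells 0.0566% of 17658 genes passed as higher and 0.0227% as lower. That is 14 genes, which became 34 without MZ CKO replicate 3 and 7, 5 and 9 without MZ control replicates 1, 2 and 3 in turn. At an unadjusted p under 0.05, 1 member was found in each subset, Lig4 in FO and Dclre1c in MZ cells, against 4.03% and 2.9% of all genes, and DESeq2 also called 0 of the 10 in both. The median log2 difference of the 10 was -0.03 in FO and 0.04 in MZ cells, against 0.01 and 0.00 over all genes. Beside this, all 6 neutrophil markers had positive log2 differences, with medians of 0.95 in FO and 0.82 in MZ cells. Their sums in FO cells were 56.9 to 144 CPM in control and 96.5 to 269 in CKO libraries. In MZ cells they were 39.1 to 106 and 53.8 to 161 CPM, so the genotypes overlapped in both subsets. All 8 proliferation markers were positive too (medians 0.23 in FO and 0.52 in MZ cells). Their sums also overlapped, at 226 to 289 CPM in control and 159 to 492 in CKO libraries of FO cells. In MZ cells they were 216 to 389 and 240 to 663 CPM. FO CKO replicate 2 was the high FO library. There Mki67, for example, was at 37.3, 149 and 23.7 CPM in CKO and 54.1, 69.2 and 52.7 in control libraries. Of 6 T cell markers, 6 were negative in FO and 5 in MZ cells (medians -0.24 and -0.07). Of 4 dendritic cell markers, 3 were negative in FO and 4 in MZ cells (medians -0.35 and -0.34). None of these markers passed. The part of these cells in the genotype values was not tested.

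The intervals of the other members show how precisely the CKO differences were measured. In FO cells the log2 differences of the 9 members other than Lig4 ran from -0.06 (Dclre1c) to 0.03 (Xrcc6). The approximate 95% interval was -0.20 to 0.12 for Trp53bp1, -0.21 to 0.16 for Xrcc5, -0.15 to 0.21 for Xrcc6 and -0.26 to 0.18 for Prkdc. It was wider for the less abundant Nhej1, at -0.30 to 0.31, and for Rif1, at -0.32 to 0.21. In MZ cells the intervals were -0.18 to 0.19 for Trp53bp1, -0.22 to 0.17 for Rif1, -0.04 to 0.32 for Xrcc5, -0.07 to 0.27 for Xrcc6 and -0.18 to 0.16 for Prkdc. Those of the ligation genes were -0.20 to 0.41 (Xrcc4), -0.33 to 0.46 (Lig4) and -0.34 to 0.35 (Nhej1).

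**Figure D4:**
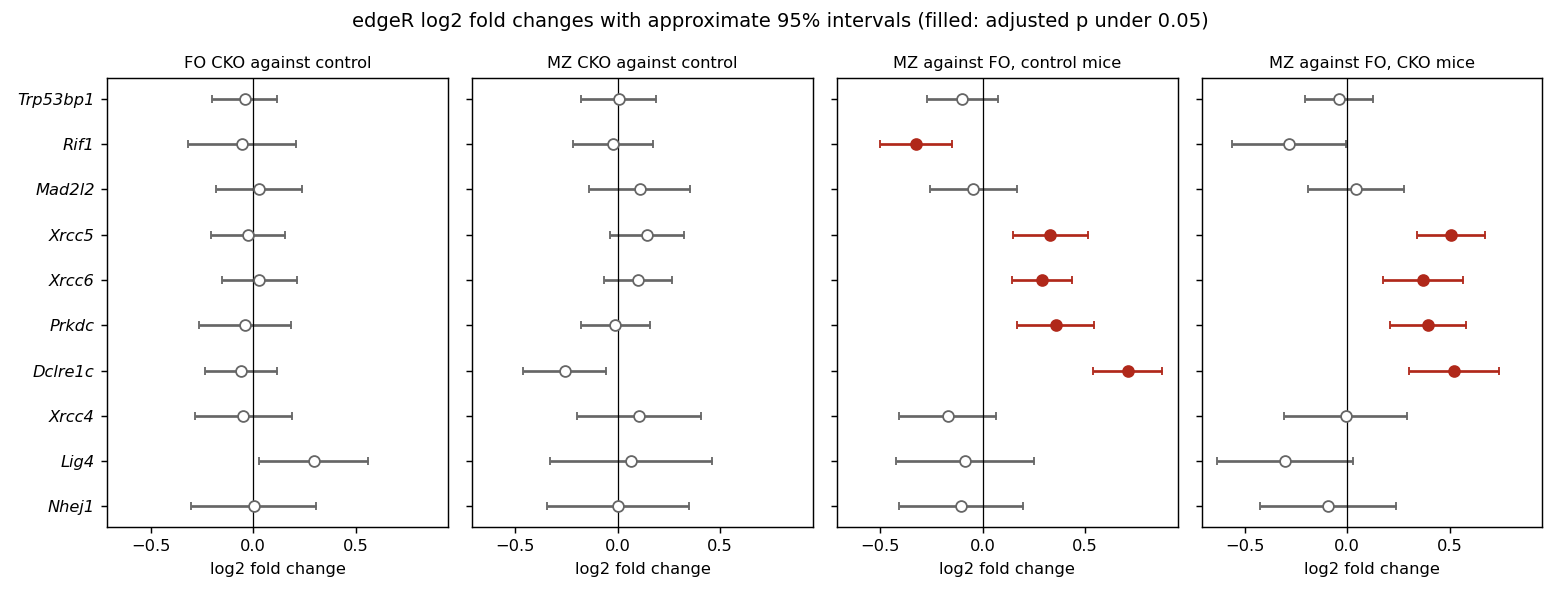
edgeR log2 fold changes of the 10 genes with approximate 95% intervals in the 4 comparisons, filled where the adjusted p is under 0.05. No member is filled for CKO against control, 5 are for MZ against FO in control mice (Rif1 at -0.32, Dclre1c at 0.71) and 4 are in CKO mice.

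Lig4 in FO cells was at 7.40, 7.24 and 7.15 CPM in control and 8.68, 8.99 and 9.09 in CKO libraries. All 3 CKO libraries lay above all 3 controls, and both groups were tight. The log2 difference was 0.30 (SE 0.12, interval 0.03 to 0.56), and it did not pass (edgeR adjusted p = 0.9995). It was the 1 member whose libraries did not overlap, against 4.78% of genes in the higher and 4.48% in the lower direction. The exact two-sided permutation test gave 0.1, the smallest value that 3 against 3 allows. The ratio of Xrcc4 to Lig4 in RPKM, partners in 1 complex, was 2.05 ± 0.169 in control and 1.62 ± 0.0585 in CKO libraries of FO cells, and ran from 1.68 to 2.37 and from 1.62 to 2.31 in those of MZ cells. In MZ cells the Lig4 libraries of the 2 genotypes overlapped (log2 0.07, SE 0.18).

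Dclre1c in MZ cells was at 43.9, 39.2 and 39.2 CPM in control and 36.5, 30.6 and 34.4 in CKO libraries. All CKO libraries lay below all controls, and the log2 difference was -0.26 (SE 0.09, interval -0.46 to -0.06, edgeR adjusted p = 1). It was the 1 member without overlap, in the lower direction, where 4.3% of genes were, against 3.25% in the higher direction. In FO cells its libraries overlapped between genotypes (log2 -0.06, SE 0.08).

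The difference between the 2 CKO effects, MZ minus FO, called 0 of the 10 and 0% of 18546 genes in either direction. Of all genes 238 (1.28%) had an unadjusted p under 0.05, none of them a member, and DESeq2 also called 0 genes. Dclre1c had a difference of -0.20 (interval -0.45 to 0.06, edgeR adjusted p = 1), Lig4 of -0.23 (-0.66 to 0.21) and Xrcc5 of 0.17 (-0.07 to 0.41). The MZ against FO differences of the 10 had the same sign in both genotypes for 9 genes, Mad2l2 being the exception, and for 81.6% of 17415 genes. Control and CKO mice are different animals.

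By the size of the range over the 4 group means of log2 CPM, Dclre1c was first (0.77), followed by Xrcc5 (0.49), Prkdc (0.40), Lig4 (0.39), Xrcc6 (0.38) and Rif1 (0.35). Mad2l2 (0.10), Trp53bp1 (0.10) and Nhej1 (0.11) had the smallest. Among 18545 genes the centred group means most like those of Dclre1c included those of Plekha4 and Gpr137b, with a root mean square difference of 0.02 and 0.03 on the log2 scale. With 4 points, of which the MZ means are high for all, this is a description of likeness.

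Members with a gene that starts head to head within 1000 bases were Prkdc with Mcm4 (466 bases between starts), Lig4 with Abhd13 (21 bases), Xrcc4 with Tmem167 (-485, the genes overlapping at their starts) and Mad2l2 with Draxin (-314, likewise). None of Mcm4, a replication helicase subunit, Abhd13 or Tmem167 passed in any comparison, except that with the mouse block Mcm4 passed for MZ against FO in CKO mice (log2 0.30, edgeR adjusted p = 0.0008724). In control mice MZ minus FO was -0.05 (SE 0.09) for Mcm4, where Prkdc was at 0.36. Abhd13 was at -0.01 (SE 0.08) for CKO against control in FO cells, where Lig4 was at 0.30. Draxin was at or below 0.0729 CPM as a group mean and was not tested. Xrcc4 shares 112 of 4213 exon bases with Tmem167, and Xrcc6 shares 344 of 4476 with Desi1, both on the opposite strand.

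Other break repair genes were taken from 5 lists. For CKO against control none of their tested genes passed in FO or MZ cells. The smallest p in FO cells was that of Polm, a gap-filling polymerase of end joining, at 0.26 (SE 0.08, edgeR adjusted p = 0.9995). In MZ cells Parp1, which makes poly(ADP-ribose) at breaks, was at 0.19 (SE 0.09, adjusted p = 1).

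Between the subsets the counts of calls in each list stand beside the shares over all genes. Those were 14.9% higher and 13% lower in control mice, and 10.5% and 7.78% in CKO mice. The lists are short, and none was tested as a set. Of 11 other end joining factors, 1 was higher in MZ cells of control mice: Cyren, a regulator of end joining (log2 0.46, edgeR adjusted p = 0.006129), and 0 passed in CKO mice, where Poll, another gap-filling polymerase, was nearest (0.31, adjusted p = 0.05173). Poll passed by DESeq2 (0.03016), without the filter on low counts (0.03227), without FO CKO replicate 3 (0.0281) and with the mouse block (0.002108). Of 15 tested 53BP1 recruitment and effector genes, Mdc1, which reads phosphorylated H2AX and brings ubiquitin ligases to breaks, was lower in control (-0.48) and CKO mice (-0.47, adjusted p = 0.001915). Its levels were 77.8 ± 6.87 CPM in FO control and 55.8 ± 4.03 in MZ control libraries. Nudt16l1, which binds 53BP1 and masks its chromatin contact, passed as higher in CKO mice (0.37, adjusted p = 0.03062), a call lost without each library in turn except MZ CKO replicate 3, and its difference between genotypes did not pass (0.18, adjusted p = 1).

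Of 16 resection and homologous recombination genes, Dna2 (0.52, edgeR adjusted p = 0.006792), a nuclease and helicase of resection, and Rad54l (0.76, 0.01565), a DNA motor of homologous recombination, were higher in MZ cells of control mice. In CKO mice 1 of the 16 passed, Xrcc3 (0.44, 0.04768), a call that was lost without the filter on low counts (0.05576), with dispersions that were not robust (0.05637) and without each library in turn. Rad54l was at 5.24 ± 2.92 CPM in FO CKO and 8.14 ± 4.44 in MZ CKO libraries, the groups in which the proliferation markers also ran widest.

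The largest differences that passed lay in the alternative end joining list, where 1 of 7 passed as higher and 1 as lower in both genotypes. Xrcc1, the scaffold of single-strand break repair, was at 77.3 ± 0.988 CPM in FO control and 141 ± 1.91 in MZ control libraries (log2 0.86, edgeR adjusted p = 1.276e-06), with 0.89 in CKO mice. Parp1 was at 687 ± 13.8 CPM in FO control and 395 ± 42.5 in MZ control libraries (log2 -0.80, adjusted p = 2.246e-05), with -0.54 in CKO mice. The Parp1 difference between genotypes was 0.25 (interval 0.01 to 0.49, adjusted p = 1). Of 5 genes that work with REV7 in translesion synthesis, Rev1 was higher in control (0.50, adjusted p = 0.0004113) and CKO mice (0.34, adjusted p = 0.04418), the latter call being lost with dispersions that were not robust (0.05808) and without each library in turn except MZ CKO replicate 2, while REV7's own gene Mad2l2 did not pass.

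**Figure D5:**
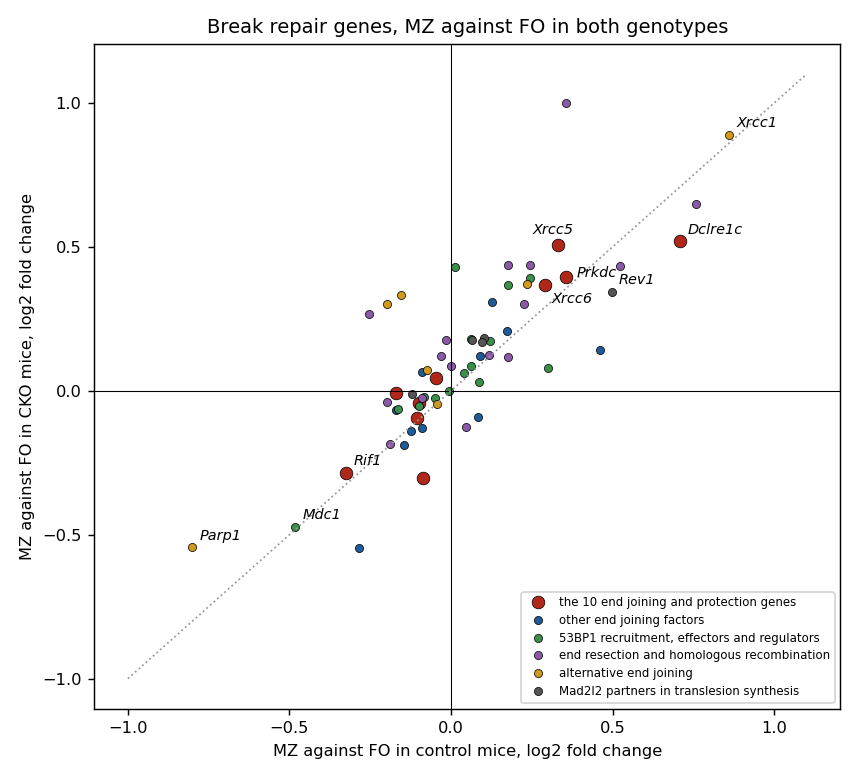
MZ against FO log2 fold change in control mice (x axis) and in CKO mice (y axis) for the 10 genes (large points) and the genes of the 5 other repair lists (small points), with the dotted line where both are equal. Dclre1c, Prkdc, Xrcc5 and Xrcc6 lie at the upper right with Xrcc1 (0.86 and 0.89), and Rif1 lies at the lower left with Mdc1 and Parp1 (-0.80 and -0.54).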

How the data were processed

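RNA of 12 libraries was made from 0.1 ug of total RNA each with the TruSeq RNA kit, per the labels' protocols. Raw counts of reads for each Ensembl gene were deposited by the authors. The submitters' processing notes name TopHat, HTSeq and DESeq2 without versions, with GRCm38 and mm10 as builds. The annotation release and the strand setting are not given in the sources used here. The 5 entries that name no gene (43.2% to 50.4% of a library's total, including 19.6% to 28.7% not uniquely aligned and 3.29% to 5.55% ambiguous) were left out. Symbols, coordinates and exon lengths came from GENCODE M21 (GRCm38), and promoter sequence from RefSeq.

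Tests used edgeR 4.0.16 under R 4.3.3 (filterByExpr, TMM scaling, robust quasi-likelihood F test, two-sided), with Benjamini-Hochberg adjustment over all genes tested and a threshold of 0.05. Each comparison used its 6 libraries, and the difference of the CKO effects used all 12. The main fits held the group only and not the mouse number. Levels are CPM on TMM-scaled totals, and RPKM divides them by the merged length of all annotated exons of a gene. SE is the absolute log2 fold change over the square root of F, and 95% intervals from it are approximate. The fit was also run on simulated counts with known changes, for FO CKO against control and MZ against FO in control mice. The simulated libraries were independent, without shared mice. The outcome is not reported here and is not used as support. Each library of a group carries its own mouse number, so replicates are taken as separate mice.

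All 10 genes are named in every comparison, with up to 3 passing genes of each repair list (otherwise the smallest p), head-to-head neighbours and the 3 genes most like the member with the widest range. Members and lists were chosen with earlier results of these data known. Pairing was checked by the correlation of same-numbered libraries' deviations from their group means: 0.43 to 0.65 between FO and MZ libraries (same mouse by inference), 0.10 to 0.36 between genotypes in FO cells, and -0.07 to 0.37 in MZ cells. Alternatives were DESeq2 1.42.0, its size factors in edgeR, no filter, dispersions that were not robust, the replicate block and leaving out each library. Shld3 was not analysed here, and values of a few genes chosen this way are not reported here.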

Additional observations from a re-analysis of the deposited data

Results flagged for a closer look

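For 4 genes of the repair lists, none of them one of the 10, the MZ minus FO difference had opposite signs in every control and every CKO mouse. Polm, a gap-filling polymerase of end joining, was higher in MZ cells of all 3 control mice, by 0.07 to 0.105 on the log2 scale, and lower in all 3 CKO mice (-0.14 to -0.08). Rad52, a single-strand annealing factor, was likewise at 0.03 to 0.0677 in control and -0.19 to -0.11 in CKO mice. Bard1, a ubiquitin ligase subunit that acts in homologous recombination, had the reverse signs, with -0.39 to -0.07 in control and 0.20 to 0.281 in CKO mice. Fen1, a flap nuclease, was at -0.27 to -0.09 in control and 0.07 to 0.354 in CKO mice. The edgeR difference of the CKO effects was -0.18 (SE 0.12) for Polm, -0.18 (SE 0.10) for Rad52, 0.52 (SE 0.53) for Bard1 and 0.49 (SE 0.33) for Fen1, and none passed (adjusted p = 1 for each). That fit treated the FO and MZ libraries of a mouse as independent, so it was not a test of the differences within mice. In the fit with the mouse number as a block, Rad52 did not pass either. Values of Polm, Bard1 and Fen1 in the blocked fit are not reported here. Every listed gene was searched for the pattern of opposite signs, and how many hits chance would give was not tested.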

How the results depend on the processing

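The counts of members called did not depend on size factors, the filter, robust dispersions or DESeq2. Without 1 library in turn they ranged from 3 to 5 in control and from 2 to 4 in CKO mice for MZ against FO, the lowest without MZ control replicate 3 and MZ CKO replicate 1. Over all genes, the FO genotype count of 16 became 140 without the filter, 40 by DESeq2, 25 with the replicate block and 11 to 31 without 1 library (highest without FO CKO replicate 3). The MZ count of 14 became 95 without the filter, 7 without robust dispersions, 38 by DESeq2, 57 with the replicate block and 5 to 34 without 1 library (lowest without MZ control replicate 2, highest without MZ CKO replicate 3). With the replicate block the MZ against FO count went from 4977 to 7805 in control and from 3243 to 6333 in CKO mice, where it was 1898 to 2884 without 1 library (lowest without FO CKO replicate 1), and the difference of effects went from 0 to 4 genes. In both genotype comparisons the replicate number joins different mice, so the block there is a shared number only. In MZ cells replicate 1 did not correlate best with its own number (-0.07), while replicates 2 (0.36) and 3 (0.37) did. In FO cells all 3 did (0.10, 0.32 and 0.36). The block changed no call of the 10 genes except Rif1 in CKO mice, and Poll and Mcm4 also passed with it there. In CKO mice Poll passed as well by DESeq2, without the filter and without FO CKO replicate 3, and Xrcc3 and Rev1 were lost with dispersions that were not robust. The causes of these shifts were not tested.

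Of 1142 alternative values for 94 gene results, 55 had the other sign, all but 2 of them for 1 left-out library and none for a difference that passed. The 2 were Nhej1 without the filter, at -0.000131 for FO CKO against control and -0.00765 for the difference of effects. Without 1 library the log2 differences ran as follows for CKO against control in FO cells: Trp53bp1 -0.105 to 0.0150, Rif1 -0.153 to 0.0678, Xrcc5 -0.0728 to 0.0523, Xrcc6 -0.0564 to 0.0836, Prkdc -0.118 to 0.0662, Xrcc4 -0.0830 to 0.00705, Nhej1 -0.0617 to 0.0516, Mcm4 -0.247 to 0.0409, Abhd13 -0.0655 to 0.0636 and Pold3 -0.0800 to 0.00752. They ran for the same in MZ cells: Trp53bp1 -0.0399 to 0.0974, Rif1 -0.0835 to 0.0567, Prkdc -0.0549 to 0.0502, Xrcc4 -0.0137 to 0.167, Lig4 -0.0460 to 0.216, Nhej1 -0.0179 to 0.0338, Tmem167 -0.0950 to 0.0382 and Abhd13 -0.150 to 0.00223. They ran for MZ against FO in control mice: Lig4 -0.231 to 0.0298 and Mcm4 -0.144 to 0.0394. They ran for MZ against FO in CKO mice: Trp53bp1 -0.0944 to 0.0170, Mad2l2 -0.000978 to 0.0654, Xrcc4 -0.134 to 0.0468 and Tmem167 -0.0268 to 0.109. They ran for the difference of the CKO effects: Rif1 -0.0798 to 0.140, Prkdc -0.0700 to 0.119, Nhej1 -0.0370 to 0.0734, Tmem167 -0.123 to 0.00544 and Abhd13 -0.134 to 0.0133. With 3 mice a group, the genotype differences of Lig4 in FO (0.30) and Dclre1c in MZ cells (-0.26) did not pass under any alternative.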
